A study of Mus musculus with 6 samples.

Results

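Mitochondrial oxidative phosphorylation subunits are the proteins of the respiratory chain and of ATP synthase that nuclear genes encode. They were taken here as all probes whose gene symbol begins with Nduf, Sdh, Uqcr, Cox4 to Cox8 or Atp5, together with Cyc1 and Cycs, leaving out the assembly factors named Ndufaf and Sdhaf and predicted genes. That rule used names only and no measured value, and it found 126 probes for 81 gene symbols among 45281 probes. The symbol Ndufs5-ps belongs to a transcribed pseudogene and was kept apart, which left 125 probes for 80 subunit genes: 34 of complex I, 4 of complex II, 9 of complex III with cytochrome c, 17 of complex IV and 16 of complex V. Ndufa4 carries a complex I name but its protein belongs to complex IV, and it was counted there.

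The study compared fundic gastric mucosa of wild type mice with that of Lasp1 knockout mice on Illumina bead arrays, 3 arrays for each genotype. All mice were C57Bl/6Ncr and 3 months old, and total RNA was measured from the mucosa as a whole. The knockout lacks Lasp1, which encodes a LIM and SH3 domain protein that binds actin and is abundant in acid-secreting parietal cells. The labels do not say how the deletion was made, nor whether wild type mice were littermates. They also do not say that every array came from its own animal. The tests therefore weigh differences against a spread that may not be that between animals.

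Complex I (NADH dehydrogenase) and complex II (succinate dehydrogenase) pass electrons to coenzyme Q, complex III (cytochrome bc1) passes them to cytochrome c, and complex IV (cytochrome c oxidase) hands them to oxygen. Complexes I, III and IV pump protons across the inner mitochondrial membrane, and complex V (ATP synthase) uses the return flow to make ATP. Parietal cells are packed with mitochondria, because the gastric proton pump H+/K+-ATPase spends ATP to secrete acid.

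Values are probe intensities that the authors had scaled to a median of 1000 on every array. The lowest value of any array was 542, from which background appears not to have been subtracted. As no array carried male-specific signal, the brightest of 13 probes of Y-linked genes on an array (1020 to 1212) was used as the bound of background. Differences are log2 values of knockout minus wild type, with the standard error (SE) of the limma fit. Probes were tested where the mean log2 value over the 6 arrays exceeded that of the median probe (22640 probes, 11868 named genes), and the threshold was a p under 0.05 after Benjamini-Hochberg adjustment over all of them. Where a gene had several probes, the brightest stands for it. Because RNA came from whole mucosa, a smaller share of parietal cells and less transcript per cell cannot be told apart.

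Nuclear respiratory factor 1 (NRF1) and the ETS family factor GABPA are known activators of many respiratory chain genes. The RefSeq promoters of GRCm38.p6, 250 bases before to 50 bases after the start of a gene, were matched to 66 of the 80 subunit genes (71 promoters). On either strand the NRF1-type letters, GCGC and GCGC with any 2 bases between them, occurred in 19 of these 71 promoters (26.8%), in 6.23% of all 32851 promoters and in 11.8% of the 12190 promoters of genes with a tested probe. The ETS letters CCGGAAG occurred in 16 of 71 (22.5%), 8.86% and 16.1%. The TATA box letters TATAAA occurred in 9 of 71 (12.7%), 13.6% and 8.29%. Across all promoters 7 NRF1 matches overlapped an ETS match. These are matches of letters and not measured binding. The promoters of 3 subunit genes described below that hold the NRF1 letters are shown, 1 each from complexes II, IV and V. Sdhd had a log2 difference of 0.04 (SE 0.17), Cox6a1 has a muscle isoform at background, and Atp5g3 was the brightest subunit. Capitals mark both kinds of match, written 5′ to 3′ on the strand of the gene, and both ETS matches lie on the opposite strand and so read CTTCCGG.
Sdhd, chr9:50603800-50604099, minus strand: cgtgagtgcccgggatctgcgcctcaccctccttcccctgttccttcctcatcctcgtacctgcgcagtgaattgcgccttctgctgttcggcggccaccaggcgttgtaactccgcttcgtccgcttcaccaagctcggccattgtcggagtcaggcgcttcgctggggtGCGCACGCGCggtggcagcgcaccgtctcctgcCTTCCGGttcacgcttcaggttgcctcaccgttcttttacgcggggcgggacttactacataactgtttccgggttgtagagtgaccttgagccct
Cox6a1, chr5:115348909-115349208, minus strand: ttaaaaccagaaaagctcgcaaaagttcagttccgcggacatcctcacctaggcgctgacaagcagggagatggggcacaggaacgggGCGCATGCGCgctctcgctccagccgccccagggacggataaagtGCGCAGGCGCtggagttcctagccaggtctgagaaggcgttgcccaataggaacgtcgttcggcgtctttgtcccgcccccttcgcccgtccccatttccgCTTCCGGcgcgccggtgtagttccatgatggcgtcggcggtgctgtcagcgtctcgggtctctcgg
Atp5g3, chr2:73911277-73911576, minus strand: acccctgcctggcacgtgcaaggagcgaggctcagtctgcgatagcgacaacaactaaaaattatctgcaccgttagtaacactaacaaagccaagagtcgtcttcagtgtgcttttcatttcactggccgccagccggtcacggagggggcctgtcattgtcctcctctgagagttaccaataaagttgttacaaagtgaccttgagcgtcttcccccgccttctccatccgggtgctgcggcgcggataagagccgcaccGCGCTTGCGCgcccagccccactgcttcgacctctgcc
Cox6a1 held 2 NRF1 matches and 1 ETS match, Sdhd 1 of each, and Atp5g3 1 NRF1 match. Among the tested subunit genes with a promoter, the median log2 difference was 0.13 for the 18 with the NRF1 letters and 0.18 for the 45 without. For the ETS letters it was 0.16 for 16 genes and 0.18 for 47.

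On its brighter probes, the gene that the study deleted was lower on every knockout array. Its brightest probe gave 270957, 275068 and 177315 for wild type replicates 1 to 3, and 88521, 111002 and 89823 for knockout replicates 1 to 3 (log2 -1.30, SE 0.21, limma adjusted p = 0.994), or 40.6% of the wild type mean. The dimmest Lasp1 probe was above background on 1 array only, and there the genotypes overlapped. It read 970 to 1483 in wild type and 877 to 1156 in knockout mucosa (-0.21, SE 0.19). Where the Lasp1 probes lie relative to the deleted part was not analysed here. Some arrays stood apart by transcripts of other tissues. Wild type replicate 3 had a summed intensity of 5593125 over 10 pancreatic acinar markers, knockout replicate 3 had 479812, and the other 4 arrays had 113919 to 142487. Squamous epithelium markers (14 genes) summed to 696581 on wild type replicate 2 and 1227258 on knockout replicate 1, against 25593 to 45374 elsewhere. Smooth muscle markers (10 genes) summed to 279170 on knockout replicate 1 and 46053 to 122145 on the others. Of 17 parietal cell markers, 16 lay above background on every array, and the exception was Kcnq1. Their summed intensity was 1742788 to 2023362 in wild type and 1854739 to 2106931 in knockout mucosa. Atp4a, the catalytic subunit of the proton pump, read 505989, 513259 and 438485 in wild type and 443047, 537817 and 539091 in knockout mucosa. The mucosa thus carried its parietal cell transcripts on all 6 arrays, and the 2 genotypes overlapped in them.

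The subunit transcripts were among the brighter signals of the mucosa, and none differed between the genotypes beyond the threshold. Of the 80 genes, 73 passed the filter on dim probes and 70 lay above background on all 6 arrays, with intensities, averaged on the log2 scale, from 2457 (Atp5k) to 453610 (Atp5g3). The median over the 73 tested genes was 67724, against 3877 over all named genes tested. No subunit probe passed limma's threshold (0 of 110), where 2 of 22640 probes did (0.00883%). At an unadjusted p under 0.05 there were 2 subunit probes higher in the knockout (1.63% of all tested probes were) and 0 lower (0.106%). With 1 probe a gene there were 0 of 73 either way, where 2.10% of named genes were higher and 0.0758% lower. A fit with array weights, which gave wild type replicate 2 a weight of 38.8 and no other array more than 1.60, called 18 of 110 subunit probes and 8.02% of all probes, and the weights had not converged. The 95% intervals of all 73 genes included 0, with a median half-width of 0.36 log2, and for 71 of the 73 the upper bound lay below 1.

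The knockout means were slightly higher for most subunits, as they were for most genes of the array. They were higher for 68 of 73 subunit genes, or 93.2%, where 79.5% of all named genes were. Counted over probes, they were higher for 100 of 110 subunit probes. This held for 76.9% of all probes and 90.6% of probes with a mean intensity above 20000. The median log2 difference was 0.17 over the 73 subunit genes, 0.12 over all named genes and 0.18 over those bright probes. By complex it was 0.18 for complex I (31 of 32 tested genes higher), 0.09 for complex II (4 of 4), 0.20 for complex III (8 of 9), 0.13 for complex IV (10 of 12) and 0.15 for complex V (15 of 16). The 5 genes with a lower knockout mean were Ndufa1 (-0.05), Uqcrfs1 (-0.02), Cox4i1 (-0.05), Cox6b2 (-0.06) and Atp5k (-0.04). Of the 70 genes above background on all 6 arrays, 67 were higher. The remaining 3 tested genes, Sdha of complex II, Uqcrfs1 and Cox6b2, lay near background and are included in the medians by complex. For 15 of 73 subunit genes, or 20.5%, the lowest knockout array exceeded the highest wild type array, where this held for 6.66% of named genes, 6.17% of all probes and 9.34% of probes with a mean intensity above 20000. These 15 genes were 6 of complex I (Ndufa13, Ndufb2, Ndufb5, Ndufc1, Ndufs4 and Ndufs6), Sdha near background, 2 of complex IV (Cox5a and Cox5b) and 6 of complex V (Atp5c1, Atp5e, Atp5g3, Atp5h, Atp5j and Atp5md). Their log2 differences other than that of Sdha lay between 0.08 (Atp5g3) and 0.29 (Atp5h). The opposite held for 0 subunit genes, for 0.817% of named genes and for 1.02% of all probes. These counts use the brightest probe of each gene. Counted over probes, the knockout arrays lay above for 19 of 110 subunit probes. Of the 15 genes, Ndufc1, Ndufs4, Ndufs6, Cox5b and Atp5j have other probes above background on all 6 arrays, and those all overlapped. Second probes of Ndufa3, Ndufa5 and Cycs did not overlap, where their brightest probes did. After quantile normalization, which gives every array the same distribution, 42 of 73 subunit genes were higher (57.5%, all named genes 50.9%), and the median was 0.01 (all named genes 0.00296). By complex the median was then 0.0074 for complex I (18 of 32 higher), -0.02 for complex II (2 of 4), 0.09 for complex III (6 of 9), -0.02 for complex IV (6 of 12) and 0.02 for complex V (10 of 16). The groups then did not overlap for 4 subunit genes above and 3 below, where 2.89% and 3.4% of named genes did so.

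Most of the difference lay on 1 array. Wild type replicate 3 was the lowest of the 6 arrays for 62 of 73 subunit genes (84.9%), for 67.3% of all named genes and for 84.0% of probes with a mean intensity above 20000. After quantile normalization it was the lowest for 26.0% of the subunit genes and 24.5% of all named genes. The subunit genes had a median deviation from their own 6-array mean of -0.28 log2 on that array, against 0.12 and -0.05 for wild type replicates 1 and 2, and 0.05, 0.13 and 0.09 for knockout replicates 1 to 3. Over all tested probes these medians were -0.27 on wild type replicate 3, 0.12 and -0.01 for the others of that genotype, and 0.09, 0.05 and -0.0022 for knockout replicates 1 to 3. Wild type replicate 3 is also the array with pancreatic acinar transcripts, whose part in the low subunit values was not tested. Without it the median subunit difference was 0.05 (all named genes 0.0024), with 54 of 73 genes higher (74%, all named genes 50.8%) and 19 lower. Without wild type replicate 1 the median was 0.25.

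**Figure D1:**
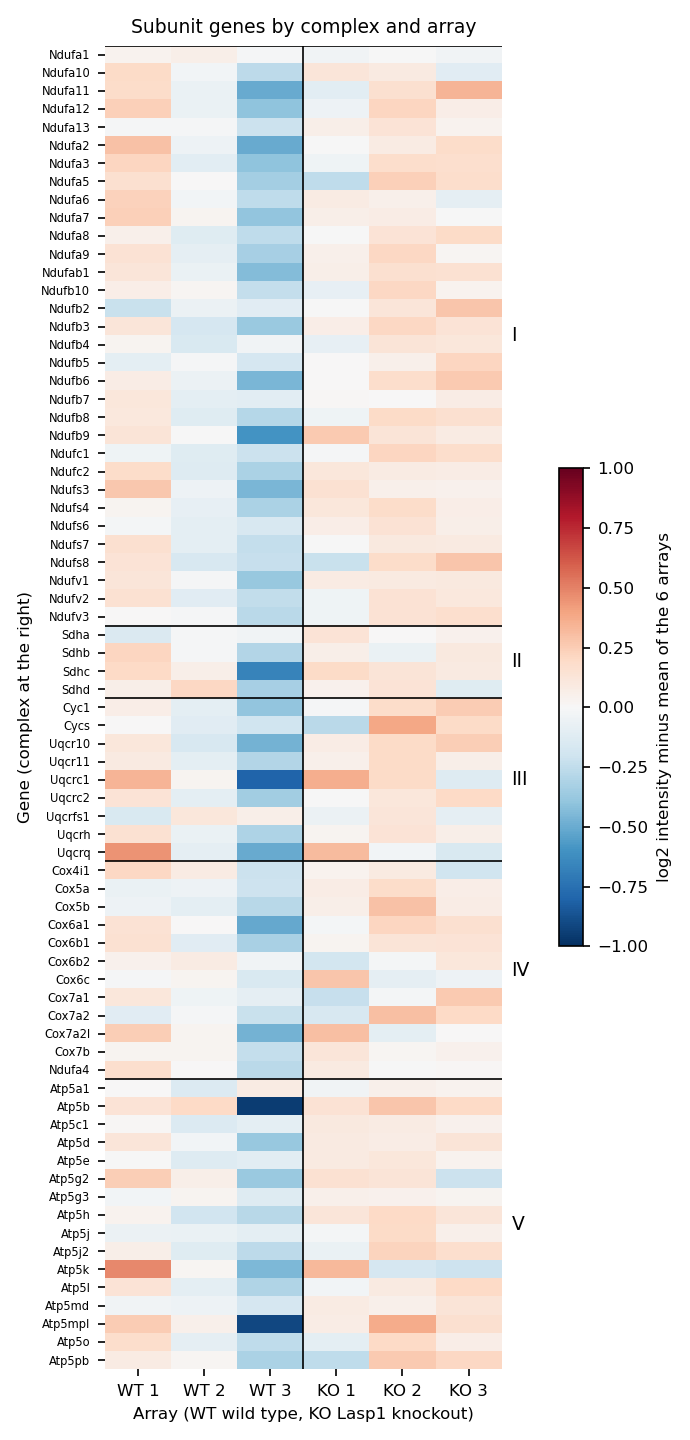
Rows are the 73 tested subunit genes by complex and columns the 6 arrays, and colour gives log2 intensity minus the gene's mean over the 6 arrays. Wild type replicate 3 is the lowest array for 62 of 73 genes, and its darkest cells are those of Atp5b, Atp5mpl and Uqcrc1.

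Arrays of 1 genotype also differed from each other. After quantile normalization the subunit median deviation was -0.09 on knockout replicate 1 and 0.09 on knockout replicate 3, where all tested probes had -0.02 and 0.0096. The same medians were 0.02, -0.03 and -0.02 on wild type replicates 1 to 3 and 0.04 on knockout replicate 2. Knockout replicate 1, the lowest, carried the squamous and smooth muscle transcripts given above, and their part in this was not tested. The titles number the arrays 1 to 6, and both genotypes occur among numbers 1 to 3 and 4 to 6. Within the arrays numbered 1 to 3 (wild type replicates 1 and 2, knockout replicate 1) the median subunit difference was 0.0050 (all named genes 0.05), and within those numbered 4 to 6 (wild type replicate 3, knockout replicates 2 and 3) it was 0.42 (all named genes 0.33). Each of these values rests on 1 array of one genotype, and the latter on wild type replicate 3. With the set as a block in the fit the median was 0.20, and 0 subunit probes passed, where 0.0133% of all probes did.

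**Figure D2:**
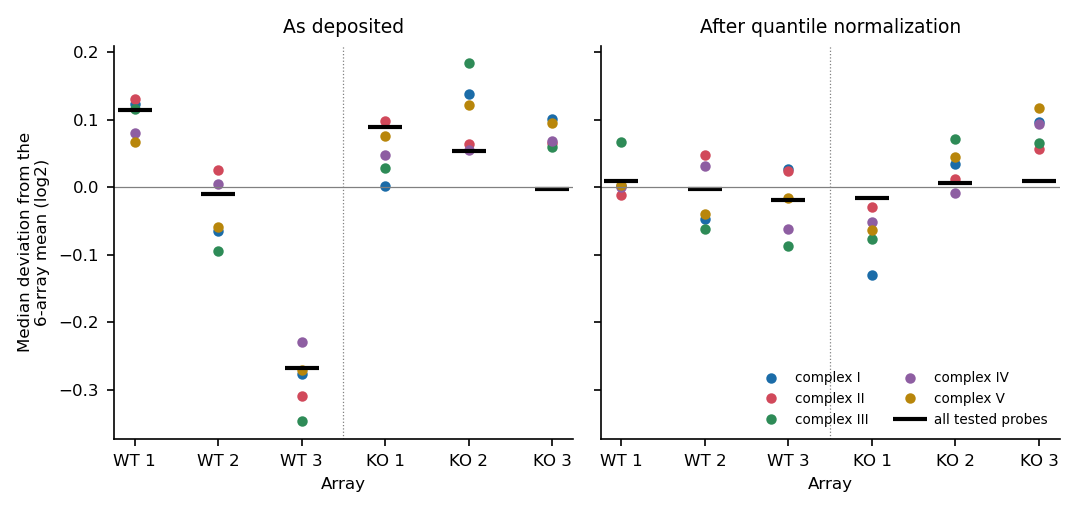
Points are the median deviation from the 6-array mean (log2) of the tested genes of each complex on each array, and black bars the same over all tested probes, as deposited and after quantile normalization. As deposited, all complexes lie lowest on wild type replicate 3 together with the bar (-0.27), and after quantile normalization complex I is lowest on knockout replicate 1 (-0.13).

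Complex I, the entry of NADH electrons, had 32 of 34 genes tested. Ndufa13, an accessory subunit also known as GRIM-19, was the brightest. It read 283121, 283833 and 245825 in wild type and 297707, 313860 and 293257 in knockout mucosa, a log2 difference of 0.16 (SE 0.12, limma adjusted p = 0.994). The knockout arrays lay above the wild type arrays by a margin smaller than the spread within wild type. The smallest p-values of the complex were those of Ndufb2, Ndufc1 and Ndufs4. Ndufb2, an accessory subunit of the membrane arm, read 13495, 15158 and 14586 in wild type and 15704, 17128 and 19130 in knockout mucosa (0.26, SE 0.13, limma adjusted p = 0.994). Ndufc1, another accessory subunit, read 40529, 38421 and 35952, then 41339, 48579 and 47304 (0.25, SE 0.12). Ndufs4, whose loss causes Leigh-like disease in mice, read 69069, 64100 and 54397, then 73421, 76906 and 70949 (0.24, SE 0.13). On the brightest probe of each of these the genotypes did not overlap. The exact two-sided permutation p was 0.1 in each, the smallest that 3 against 3 arrays can give. On the other probes of Ndufc1 and Ndufs4 the genotypes overlapped. After quantile normalization the differences of Ndufb2, Ndufc1 and Ndufs4 were 0.09, 0.08 and 0.08. Over the 32 tested genes the log2 differences ran from -0.05 (Ndufa1) to 0.31 (Ndufb9, an accessory subunit).

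The probes of 1 subunit did not always move alike. Ndufab1, the mitochondrial acyl carrier protein, has 4 probes. Its brightest, ILMN_1247777, read 105985, 93413 and 72476 in wild type and 101789, 109122 and 108639 in knockout mucosa (0.25, SE 0.16). Its dimmest, ILMN_2732281, read 2799, 2955 and 3376 in wild type and 3148, 5409 and 5844 in knockout mucosa (0.61, SE 0.25, limma adjusted p = 0.994). Knockout replicates 2 and 3 were high on that probe, and knockout replicate 1 lay within the wild type range. The other 2 probes differed by 0.08 and 0.09. The 2 probes of Ndufc2, both above background on all 6 arrays, differed in sign. The brighter gave 0.18 (SE 0.15) and the dimmer -0.10 (SE 0.11). Ndufab1 and Ndufc2 were singled out after their values were seen. Ndufb11 and Ndufs1 were not above background on any array, so only a bound can be given for them. The pseudogene symbol Ndufs5-ps read 32170 to 45464 in wild type and 42353 to 46921 in knockout mucosa (0.21, SE 0.16). Whether its probe also reads Ndufs5 was not tested.

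Complex II, which oxidises succinate and also serves the citric acid cycle, had the smallest median difference of the complexes. Sdhb, its iron-sulfur subunit, read 39229, 33657 and 27695 in wild type and 35231, 32374 and 36238 in knockout mucosa (0.06, SE 0.16, 95% interval -0.31 to 0.43). Sdhc, a membrane anchor, read 63237, 57450 and 34726, then 62697, 60043 and 58453 (0.27, SE 0.23), and without wild type replicate 3 the difference was 0.0024. Sdhd, the other anchor, read 28467, 31568 and 21720, then 28180, 29928 and 25085 (0.04, SE 0.17). The genotypes overlapped in each. After quantile normalization Sdhb and Sdhd turned to -0.12 and -0.14. Sdha, the flavoprotein, was above background on 1 array only (919 to 1007 in wild type, 1017 to 1118 in knockout), so most of its values are no more than a bound.

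Complex III passes electrons to cytochrome c. Uqcr10, a small subunit next to cytochrome c1, was the brightest of this complex and had the smallest p. It read 274645, 227381 and 182366 in wild type and 266864, 289768 and 301356 in knockout mucosa (0.34, SE 0.17, limma adjusted p = 0.994). The genotypes overlapped, since knockout replicate 1 lay below wild type replicate 1. After quantile normalization this probe of Uqcr10 still differed by 0.30, and without wild type replicate 3 by 0.19. A second Uqcr10 probe of similar brightness, ILMN_3142224, differed by 0.21 (SE 0.15), and by 0.16 after quantile normalization. Cyc1, cytochrome c1 itself, read 66828, 59608 and 48580, then 63319, 72533 and 76273 (0.29, SE 0.16, 0.10 after quantile normalization). Uqcr11 read 155812, 136386 and 119326, then 151114, 167120 and 152354 (0.20, SE 0.14). In both, knockout replicate 1 lay inside the wild type range. Uqcrc1, a core subunit singled out for its spread, read 59608, 48034 and 27016 in wild type and 60636, 53671 and 42938 in knockout mucosa (0.28, SE 0.30), and without wild type replicate 3 it differed by -0.04. Uqcrfs1, the Rieske iron-sulfur protein, was above background on 1 array only.

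Cycs encodes cytochrome c, the soluble carrier between complexes III and IV, and is read by 3 probes. The brightest read 84189, 77638 and 72838 in wild type and 69518, 109398 and 95846 in knockout mucosa (0.20, SE 0.19). A second, ILMN_3155380, read 13295, 14201 and 14353 in wild type and 16498, 20291 and 20099 in knockout mucosa. Every knockout value exceeded every wild type value there, and its p was the smallest of any subunit probe (log2 0.44, SE 0.13, limma adjusted p = 0.994). The third, ILMN_3076459, read 2705, 2470 and 2466, then 2598, 3293 and 3303 (0.26, SE 0.14). On all 3 probes knockout replicates 2 and 3 were the highest arrays, and on the brightest probe knockout replicate 1 was the lowest of all 6. Cycs was also singled out after its values were seen. After quantile normalization the 3 differences were 0.05, 0.25 and 0.12.

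Complex IV reduces oxygen, and several of its subunits exist as isoforms made by separate genes. Cox5a, an accessory subunit, was the brightest. It read 268512, 270613 and 243968 in wild type and 295814, 319857 and 293446 in knockout mucosa (0.22, SE 0.11, limma adjusted p = 0.994). Cox5b, which binds zinc, read 229412, 221344 and 195108, then 247411, 290143 and 249486 (0.28, SE 0.13, limma adjusted p = 0.994). For both the genotypes did not overlap on the brightest probe (exact two-sided permutation p = 0.1). After quantile normalization the differences of Cox5a and Cox5b were 0.16 and 0.22. On a second Cox5b probe, ILMN_2772319, the genotypes overlapped. It differed by 0.21 (SE 0.13), and by 0.04 after quantile normalization. Cox4i1, the main form of subunit 4, had the opposite sign. It read 257713, 235797 and 192039 in wild type and 228337, 236560 and 193841 in knockout mucosa (-0.05, SE 0.16, 95% interval -0.42 to 0.32). Subunits of 1 enzyme complex therefore differed in the sign of the small difference, within their errors. Ndufa4 read 159134, 142159 and 117775, then 150933, 141706 and 143051 (0.07, SE 0.14).

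The widely expressed isoforms lay well above background in both genotypes, and most forms known from other tissues did not. Cox6a1, the widely expressed form of subunit 6a, read 234320, 213509 and 149242 in wild type and 210101, 246559 and 237493 in knockout mucosa (0.24, SE 0.19). Cox6a2, its heart and skeletal muscle form, read 783 to 938 in wild type and 800 to 898 in knockout mucosa and was not above background on any array. Cox6b1 read 301716, 250676 and 216261, then 276889, 296454 and 297595 (0.19, SE 0.15), while the testis form Cox6b2 read 957 to 1177 and was above background on 2 arrays. Cox4i2, a form known from lung, read 761 to 963 and was not above background on any array. The same held for Cox7b2 (678 to 942), the muscle and brown fat form Cox8b (804 to 1134) and the testis form Cox8c (617 to 788). Cox7b read 16395, 16377 and 13649, then 17524, 16357 and 16585 (0.13, SE 0.13). The isoform genes Cox8a, Atp5g1 and Ndufa4l2 were not analysed here, as no probe carries their symbols.

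Subunit 7a was the exception. Cox7a1, known as the heart, skeletal muscle and brown fat form, lay far above background on all 6 arrays. It read 51236, 45938 and 44554 in wild type and 40373, 46683 and 56760 in knockout mucosa (0.0096, SE 0.16, 95% interval -0.36 to 0.38). Knockout replicate 1, the array with the most smooth muscle transcripts, was the lowest for Cox7a1, and knockout replicate 3 the highest. Of 15 striated muscle markers only Mylpf and Tnni2 were above background on all 6 arrays. The summed intensity of all 15 was 31552 to 43973 in wild type and 41490 to 58349 in knockout mucosa. Tnni2, fast skeletal troponin I, read 17206 to 30023 in wild type and 27621 to 43877 in knockout mucosa. Of the 5 striated markers tested, 2 had a higher and 3 a lower knockout mean, with a median log2 difference of -0.04. The 8 adipose markers summed to 10875 to 14601 in wild type and 12383 to 14488 in knockout mucosa, and the brown fat marker Ucp1 read 689 to 816, at background. Their part in the Cox7a1 level was not tested. Cox7a2, the widely expressed form, read 22227, 23861 and 20599, then 21510, 29583 and 27529 (0.23, SE 0.16). Cox7a2l, which encodes a related protein, read 29760, 25575 and 18072, then 31019, 23545 and 25143 (0.14, SE 0.21). The genotypes overlapped for all 3 genes of this family. After quantile normalization Cox7a1 and Cox7a2l turned to -0.17 and -0.05.

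**Figure D3:**
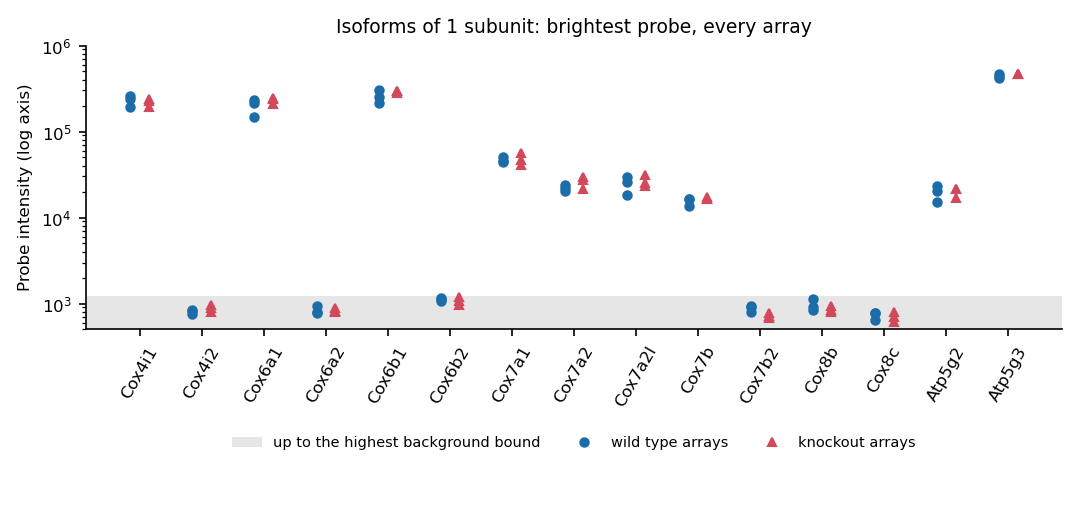
Points are the intensity (log axis) of the brightest probe of each isoform on the 3 wild type and 3 knockout arrays, and the grey band runs up to 1212, the highest background bound. Cox7a1 lies far above the band on all arrays, while Cox4i2, Cox6a2, Cox6b2, Cox7b2, Cox8b and Cox8c lie in it in both genotypes.

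Complex V makes ATP from the proton gradient. Atp5g3, 1 of the genes for the proton-carrying c subunit, was the brightest subunit of all. It read 446079, 461266 and 415559 in wild type and 471125, 467065 and 462996 in knockout mucosa (0.08, SE 0.11). Its values were 61.4% to 86.2% of the brightest probe on the same array. Undoing the authors' scale brought the brightest probe to between 32675 and 34360 units on every array, and whether the range of the scanner caps such probes was not tested. Atp5g2, another c subunit gene, read 22974, 20254 and 14981, then 21539, 21199 and 16727 (0.04, SE 0.20). The genotypes overlapped for Atp5g2 and did not overlap for Atp5g3. The smallest p-values were those of Atp5h, Atp5md and Atp5j2. Atp5h, subunit d of the peripheral stalk, read 79776, 68136 and 64237 in wild type and 84531, 89330 and 84861 in knockout mucosa (0.29, SE 0.13, limma adjusted p = 0.994). Atp5md, a small membrane subunit, read 10206, 10093 and 9300, then 11064, 10875 and 11451 (0.17, SE 0.11). Atp5j2, subunit f, read 230509, 204420 and 184855, then 212252, 258174 and 249488 (0.22, SE 0.14). Atp5h and Atp5md had non-overlapping genotypes, and after quantile normalization they differed by 0.14 and 0.00052. Over the 16 genes of the complex the log2 differences ran from -0.04 for Atp5k, subunit e, to 0.41 for Atp5b.

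The largest differences of any subunit gene were those of Atp5b and Atp5mpl, and both rested on wild type replicate 3. Atp5b, the catalytic beta subunit, read 488872, 510747 and 229885 in wild type and 491287, 539446 and 509449 in knockout mucosa (0.41, SE 0.30, limma adjusted p = 0.994). Atp5mpl, a small subunit of the membrane part, read 255502, 222503 and 114388, then 225935, 277673 and 240548 (0.40, SE 0.30). On both, wild type replicate 3 read less than any other array, and the other 5 overlapped. Without that array the differences were 0.04 and 0.05. Atp5b stood at 33.95% of the brightest probe of wild type replicate 3 and reached 91.6% elsewhere. The log2 difference of wild type replicate 3 from the mean of the other wild type arrays was -1.12 for Atp5b, -1.06 for Atp5mpl and -0.99 for Uqcrc1, where the median over the 73 genes was -0.32. In all, 14 subunit genes were lower there by more than 0.5 log2. These genes were singled out after their values were seen.

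**Figure D4:**
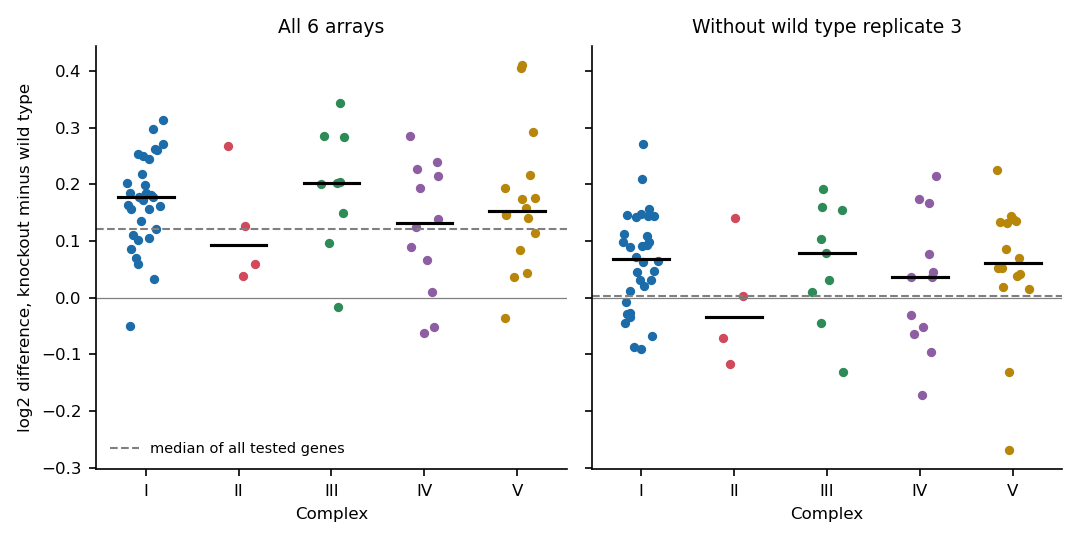
Points are the log2 differences (knockout minus wild type) of the tested subunit genes by complex, with all 6 arrays and without wild type replicate 3, black bars the median of each complex and dashed lines the median of all tested named genes (0.12 and 0.0024). Without that array the medians of the complexes lie between -0.03 (complex II) and 0.08 (complex III), and Atp5b and Atp5mpl no longer stand above the others.

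Other mitochondrial genes also had mostly higher knockout means, as 79.5% of all named genes did, with a median of 0.12 (0.0024 without wild type replicate 3, 0.00296 after quantile normalization). Of 42 tested assembly factors of the respiratory chain 41 had a higher knockout mean, with a median of 0.18 (0.07 without wild type replicate 3, 0.02 after quantile normalization). Cox14, which acts in complex IV assembly, had the smallest p of these. It read 53506, 46883 and 34269 in wild type and 51581, 61573 and 60415 in knockout mucosa (0.39, SE 0.19). Of 15 tested genes of pyruvate dehydrogenase and the citric acid cycle 13 were higher, with a median of 0.15 (0.02 and -0.02), and Idh3a, an isocitrate dehydrogenase subunit, led at 0.39 (SE 0.19). Of 16 tested mitochondrial carrier and import genes 13 were higher, with a median of 0.15 (0.0050 and 0.04), led by the outer membrane channel gene Vdac3 at 0.36 (SE 0.21). Of 18 regulators of mitochondrial gene expression 17 were higher, with a median of 0.13 (0.03 and -0.01). Esrra, an orphan nuclear receptor that drives respiratory chain genes, read 20845, 20275 and 15246 in wild type and 21594, 30366 and 20438 in knockout mucosa (0.35, SE 0.20). Knockout replicate 2 stood out and the genotypes overlapped. Ppargc1a, its coactivator, read 9878, 6214 and 3983, then 8975, 5386 and 5378 (0.03, SE 0.36). In these 4 lists 0 genes passed limma's threshold, and 0 had an unadjusted p under 0.05. The parietal markers had a median of 0.08 (-0.01 without wild type replicate 3, 0.03 after quantile normalization), with 14 of 17 higher. The 13 mitochondrially encoded subunits were not analysed here, because the annotation used gives no probe their symbols.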

How the data were processed

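Biotin-labelled cRNA made from total RNA of gastric mucosa was measured on Illumina arrays, per the labels. The deposited table holds 1 linear intensity per probe and array, and the authors had scaled each array to a median of 1000, as the values show. The scanner software, background step and genome build are not stated in the sources. Depth is signal over background: 35.8% to 48.5% of probes lay above the background bound of their array. No background subtraction is visible in the values, which is an inference from them, and if there was none, folds of dim probes are understated.

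Gene names came from the platform annotation (34885 with 1 symbol, 18 with several, 10378 with none), and all 81 member symbols matched the RefSeq table of GRCm38.p6 by gene identifier. Intensities were log2 transformed without a pseudocount. Knockout was compared with wild type with limma 3.58.1 in R 4.3.3 (lmFit, eBayes, two-sided, Benjamini-Hochberg over 22640 kept probes), tested on simulated data first. Exact permutation tests were run for single genes. Lists are described by counts and medians, with no list test. The members, lists and alternatives were chosen with earlier results of these data known. Genes given on every array are, per complex, the brightest, the 3 of smallest p, all of complex II and the isoform families; others are said to be singled out. From the other mitochondrial lists, genes of smallest p are named, and Ppargc1a was added after its values were seen. Alternatives covered normalization, filter, pseudocount, probe averaging, variance model, weights, blocks and left-out arrays. Whether replicate numbers pair arrays was checked by the correlation of deviations from group means. Figures used matplotlib 3.10.9 in Python 3.11.15.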

Additional observations from a re-analysis of the deposited data

How the results depend on the processing

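The median difference over the 73 subunit genes (0.17 log2) kept its sign under each alternative run that could change it. Its size did not hold: it ran from 0.01 after quantile normalization to 0.25 without wild type replicate 1. Between arrays of 1 genotype the subunit medians had an SD of 0.20 log2 (the larger of the 2 groups). That spread exceeds the difference itself, so a shift within it cannot show that the difference is stable. No subunit probe passed the threshold except under array weights, which called 18 subunit probes and 1816 of all probes. Of all probes 0 passed with the replicate number as a block, 0 without both arrays with squamous transcripts, 0 without both arrays with pancreatic transcripts, and 0 to 3 when single replicates were left out (3 only without wild type replicate 3). No pairing by replicate number was visible: the correlation of deviations between arrays of the same number was 0.0445, -0.299 and 0.527. Between arrays of different numbers it ran from -0.562 to 0.549. The arrays at 0.527 both carried pancreatic transcripts, and those at 0.549 squamous transcripts, so the check cannot decide whether animals were paired. Each number holds 1 array of either genotype, so the block cannot change a mean difference.

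The alternatives were followed for the tested genes given as brightest, of smallest p, of complex II or of an isoform family. Of these, 10 changed sign under at least 1 alternative, and none of those passed the threshold. Singled-out genes and those of the other mitochondrial lists were not counted. Uqcrc1, 1 of the singled-out genes, also changed sign, to -0.04 without wild type replicate 3. Quantile normalization gave -0.12 for Sdhb, -0.14 for Sdhd, -0.17 for Cox7a1, -0.047 for Cox7a2l, -0.051 for Cox7b, -0.052 for Ndufa4 and -0.14 for Atp5g2. Scaling to the 75th percentile gave -0.066 for Sdhb, -0.086 for Sdhd, -0.11 for Cox7a1, -0.058 for Ndufa4, -0.081 for Atp5g2 and -0.040 for Atp5g3. Array weights gave -0.17 for Sdhd, -0.035 for Cox7a2l and -0.049 for Atp5g2. The title-number block gave 0.023 for Cox4i1 and -0.028 for Cox7a1. Cox6b2 was 0.041 without both squamous arrays. Without both pancreatic arrays Sdhb was -0.11, Sdhd -0.046, Cox7a1 -0.16, Cox7a2l -0.030, Ndufa4 -0.040 and Atp5g2 -0.014. With single replicates left out, Cox4i1 ranged from -0.17 to 0.040, Cox7a1 from -0.12 to 0.13, Sdhb from -0.072 to 0.18, Sdhd from -0.12 to 0.15, Cox7a2l from -0.064 to 0.30, Ndufa4 from -0.051 to 0.17, Atp5g2 from -0.13 to 0.18 and Cox6b2 from -0.14 to 0.014. The cause of these changes was not tested.

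With 3 arrays a group the threshold is hard to reach: log2 differences of 0.44 (Cycs) and 0.61 (Ndufab1), and of -1.30 and -1.59 for the brighter probes of the deleted gene Lasp1, had a limma adjusted p of 0.994. At this depth smaller differences of the subunits were not detectable, which does not show that they are absent. The probe of Sdha lay near background, and those of Atp5b and Atp5g3 near the top of the range of an array.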
